A study of Homo sapiens with 36 samples.

Results

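SW1783 cells treated with the high dose of ACD were compared with the vehicle-treated cells of the same batch across all genes. The libraries were chosen by their labels alone, as the 3 SW1783 libraries of the high dose and the 3 of the batch B vehicle, which are 6 of the 36 libraries of the series. Of 60675 genes in the count table, 30808 had a count in the 12 SW1783 libraries of batch B and 19453 received an adjusted p in this comparison. ACD is Aconitum carmichaeli Debeaux, a monkshood used in traditional medicine, given here as its extract in hot water. The sample labels name the treatment as water extract of Aconiti Lateralis Radix Preparata. SW1783 is an established human astrocytoma line, a tumour line of glial origin, kept in Leibovitz's L-15 medium with fetal bovine serum and without CO2. High-dose cells were exposed to 500 µg/mL ACD for 24 h. Vehicle cells were kept for the same 24 h with DMSO, at 0.1% according to the sample labels, while the series' design text states another percentage. The methods name the vehicle as PBS with DMSO and give the percentage of that solution, not of the medium. The same batch held a medium dose of 100 µg/mL and a low dose of 20 µg/mL, which share these vehicle libraries. The study asked whether brain-derived or intestine-derived cells respond more to the extract, and HT29, a colorectal adenocarcinoma line given the same doses, stood for the intestine. SW1783 stands for the brain as a single tumour line, and the labels do not say that the 3 replicates of a group came from separate cultures, so the p-values measure the spread between these libraries only.

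Cells that are short of amino acids, or whose endoplasmic reticulum (ER) or mitochondria are disturbed, switch on the integrated stress response (ISR). Kinases that sense the stress slow general protein synthesis, while the mRNA of the transcription factor ATF4 is translated better, and ATF4 then raises genes that make, import and charge amino acids. Astrocytes and astrocytoma cells also release chemokines, take up glutamate and lay down extracellular matrix, so that genes of these functions can be followed in the same libraries.

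The vehicle libraries held 19780233, 23025822 and 19514611 counts in total and the high-dose libraries 18959098, 24200565 and 23485340, and 15020 to 15722 genes had 10 or more counts. In bulk libraries, fewer cells of a kind and less RNA per cell cannot be told apart. The glial label was only partly borne out by the defining markers. GFAP, the intermediate filament of astrocytes, had 1, 6 and 2 raw counts in vehicle and 1, 0 and 3 with the high dose, and S100B, ALDH1L1, SOX2, AQP4 and FABP7 had at most 5 counts in any of the 6 libraries. VIM, CD44, GJA1, SOX9, the glutamate transporter SLC1A3 and NES were counted in all 6. Of the markers of other cell types, some were at or near 0. EPCAM had no more than 3 counts and CDH1 no more than 1, and CDX2, KRT20 and CD3E had no count. Other markers of epithelial, neuronal, pericyte and immune cells were counted, among them KRT18, TUBB3, SNAP25, PDGFRB and the immune marker PTPRC. Those that changed are given with their values near the end.

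At the high dose 3546 genes were differentially expressed (DEGs), which is 18.2% of the genes tested. A DEG had an adjusted p under 0.05 in the Wald test of DESeq2 and a change of more than 1.5-fold. Of the DEGs 1684 were higher (8.66% of genes tested) and 1862 were lower (9.57%), and the median log2 fold change of all genes tested was -0.0096. These shares are the background for the counts of list members given below. With libraries scaled to their total counts, a scaling that moved the median of well-counted genes from 0.03 to -0.09, the split was 1293 higher and 2494 lower. Among well-counted genes the largest changes were rises. Of the 11243 genes with a mean normalised count of 100 or more, 79 rose and 36 fell more than 4-fold, 31 rose and 4 fell more than 8-fold, and 12 rose and 0 fell more than 16-fold. Protein-coding genes made up 1397 of the higher and 1435 of the lower DEGs. Long non-coding RNAs made up 183 and 294. The groups did not overlap in 1681 of the higher and 1848 of the lower DEGs, against 60.4% of all genes tested. For the strongest genes, such as GDF15, TRIB3 and CXCL8, the adjusted p was too small for the number format of the software and was returned as 0; where no adjusted p is printed for a DEG below, it is one of these or lay far under the threshold.

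**Figure D1:**
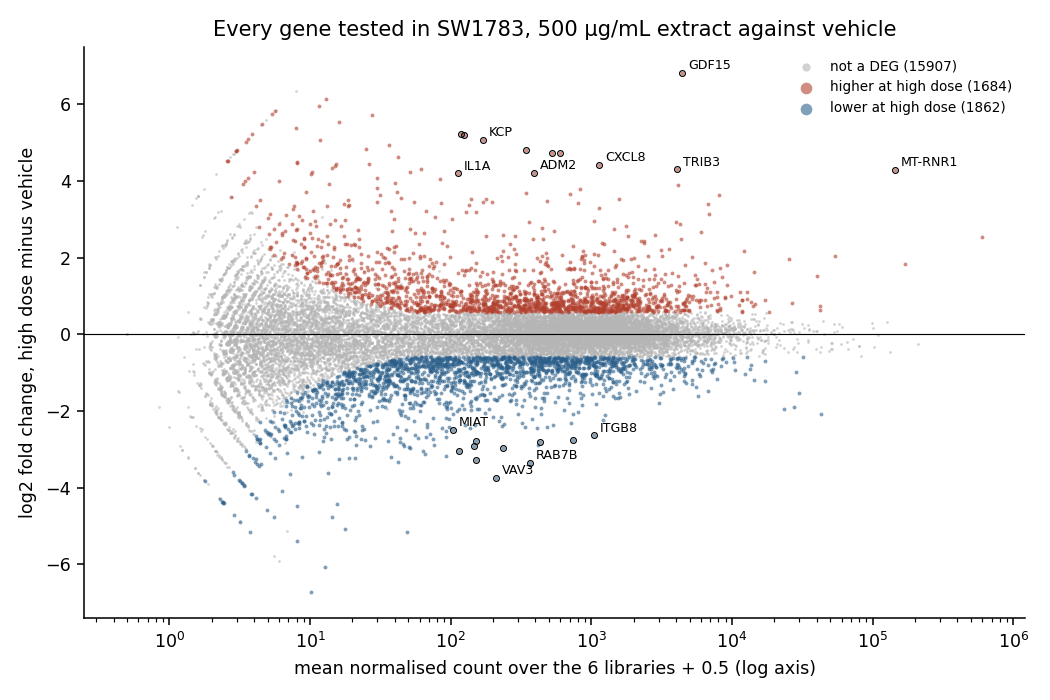
Each point is 1 of the 19453 genes tested, with its mean normalised count over the 6 libraries on a log axis and its log2 fold change at the high dose; red points are the 1684 higher and blue points the 1862 lower DEGs, and open circles mark 12 of the largest rises and 11 of the largest falls among well-counted genes. Among genes with a mean of 100 or more the rises reach further from 0, to GDF15 at 6.81, than the falls, to VAV3 at -3.74, whereas genes with few counts spread widely on both sides.

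The 12 largest rises among well-counted genes were those of GDF15, CXCL3, CXCL2, KCP, NGFR, HKDC1, ATF3, CXCL8, TRIB3, MT-RNR1, ADM2 and IL1A. GDF15, a secreted stress cytokine, had 63.5, 84.1 and 86.4 normalised counts (counts divided by the library's size factor) in vehicle and 8517, 8922 and 8947 at the high dose, a 112-fold rise (log2 fold change 6.81). No vehicle library came near a treated one, and the treated libraries lay within a few percent of each other. NGFR, a neurotrophin receptor, had 24.6, 24.5 and 21.9 counts in vehicle and 614, 723 and 653 at the high dose (log2 fold change 4.81 ± 0.20 SE, adjusted p = 1.54e-121 by DESeq2). HKDC1, a hexokinase, went from 36.9, 53.4 and 37.5 to 1062, 1190 and 1175 (4.73 ± 0.15, adjusted p = 1.3e-210). KCP, a secreted modulator of BMP signals whose annotated exons overlap those of another gene, went from 11.3, 10.5 and 7.29 to 299, 350 and 340 (5.08 ± 0.31, and 5.93 against the batch A vehicle). The groups do not overlap in any of these genes, as the rule for naming them required.

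The largest falls among well-counted genes were smaller. VAV3, an exchange factor that activates small GTPases, had 405, 406 and 352 counts in vehicle and 32.4, 28.8 and 26.2 at the high dose, 13.4-fold lower (-3.74 ± 0.19, adjusted p = 2.45e-87). RAB7B, a small GTPase of endosome traffic, went from 680, 660 and 647 to 70.6, 64.9 and 59.9 (-3.35 ± 0.14). CCN4, a secreted matricellular protein, went from 296, 278 and 251 to 24.3, 26.1 and 33.7 (-3.28 ± 0.20). The highest treated library thus stayed far under the lowest vehicle library in all 3 genes, which the naming rule had required not to overlap. Further falls were those of RASL11A, a Ras-like protein (-3.05), TGFB3, a growth factor of the TGF-beta family (-2.97), TCAF2, which has a close paralog and shares exons with another gene (-2.92), LYPD1 (-2.81), the non-coding RNA LINC02593 (-2.77), DIO2, the deiodinase that activates thyroid hormone (-2.76), the integrin subunit ITGB8 (-2.64) and the non-coding RNA MIAT (-2.50), whose exons overlap 5 other genes.

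**Figure D2:**
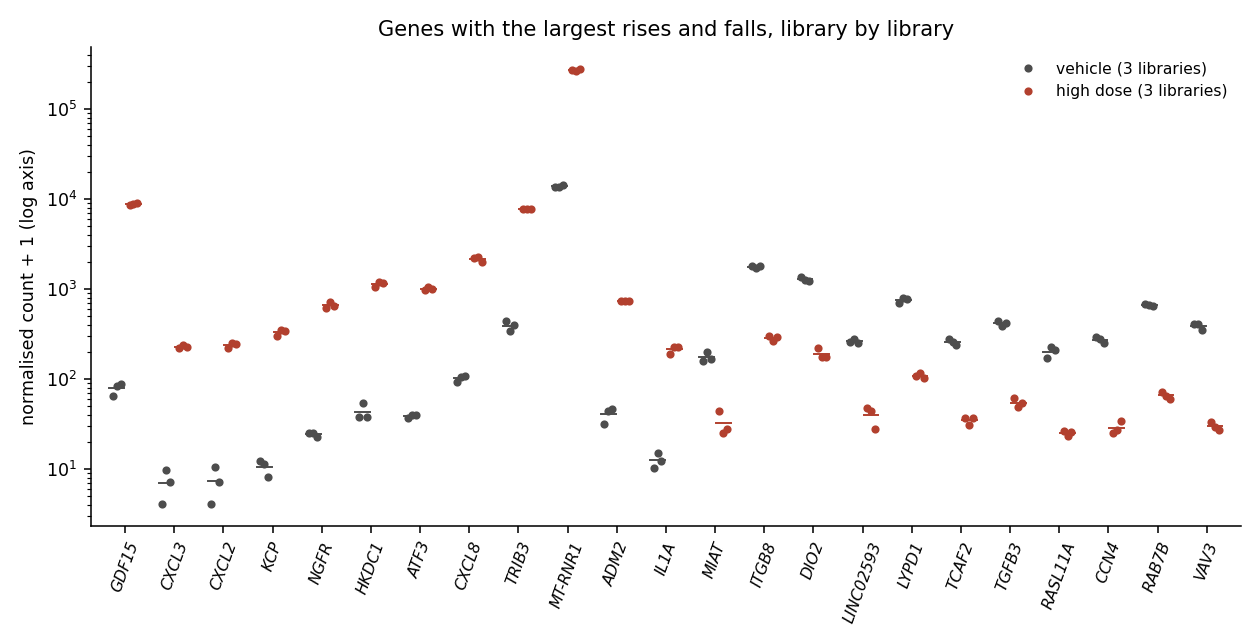
Normalised counts plus 1 (log axis) of the 12 largest rises and of 11 among the largest falls, with a point for each of the 3 vehicle (grey) and 3 high-dose libraries (red) and a bar at each mean. The rule for naming these genes required groups that do not overlap, and the means run from GDF15 with 78.0 and 8795 to MIAT with 174 and 31.4.

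Most regulators of the integrated stress response rose, and none was a lower DEG, with the lowest log2 fold change at -0.42. Of 25 regulators tested, 18 were higher DEGs, against 8.66% of all genes tested, with a median log2 fold change of 1.57. ATF4 itself had 2092, 2024 and 2060 counts in vehicle and 8624, 8070 and 8446 at the high dose, a 4.07-fold rise. DDIT3, which encodes CHOP, a partner of ATF4, went from 505, 481 and 558 to 7811, 8145 and 7141, a 15-fold rise, and its exons overlap those of 1 other gene on the same strand. ATF3, a stress-induced transcription factor, went from 35.9, 39.4 and 39.5 to 974, 1064 and 1006 (4.73 ± 0.16, adjusted p = 8.44e-179). The ranges of treated and vehicle libraries were far apart in all 3 transcription factors. Groups that do not overlap were the rule among higher DEGs, with 1681 of 1684. TRIB3, a pseudokinase that restrains ATF4 and CHOP, went from 438, 345 and 398 to 7763, 7770 and 7696 (4.31). PPP1R15A, which directs the phosphatase that ends the response, rose 7.66-fold (2.94), and CHAC1, an enzyme that degrades glutathione, rose 7.65-fold (2.94 ± 0.13, adjusted p = 1.88e-117). The 4 kinases that start the response were within 1.5-fold, with log2 fold changes of 0.46 for EIF2AK3, 0.11 for EIF2AK1, 0.07 for EIF2AK2 and 0.12 for EIF2AK4.

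Amino acid genes that ATF4 is known to raise were also higher. Of 24 enzymes of amino acid and one-carbon synthesis, 15 rose and 2 fell, with a median of 0.87. ASNS, which makes asparagine, had 1031, 1028 and 1004 counts in vehicle and 7288, 7527 and 7590 at the high dose, a 7.32-fold rise. The cysteine pathway enzymes CBS and CTH rose by 2.69 ± 0.12 and 2.49 ± 0.11 on the log2 scale, and the serine pathway enzymes PSAT1 and PHGDH by 2.04 and 1.47. The 2 lower members, of which 1 was lower without vehicle replicate 3, were SHMT1 (-0.62) and PYCR3 (-0.72), each with a paralog, SHMT2 (1.05) and PYCR1 (1.20), that was higher. Of 24 amino acid transporters 8 rose (33.3%) and 4 fell (16.7%). SLC7A11, which imports cystine, went from 2861, 2792 and 2719 to 10355, 10065 and 9952 (1.86), and SLC7A5, which imports large neutral amino acids, rose 3.2-fold. In the other direction SLC1A3, the glial glutamate transporter, went from 671, 685 and 714 to 127, 122 and 130 (-2.45 ± 0.11, adjusted p = 3.89e-115), and SLC38A4 fell by 1.98. The transporters thus split, whereas the synthesis enzymes moved mostly one way.

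The enzymes that charge tRNAs differed by compartment. Of 20 cytosolic aminoacyl-tRNA synthetases 12 were higher and 0 lower, with a median of 0.87, led by GARS1 for glycine (1.80), AARS1 for alanine (1.72), YARS1 for tyrosine (1.28) and CARS1 for cysteine (1.19). AARS1 had 3760, 3910 and 3779 counts in vehicle and 12558, 12615 and 12639 at the high dose. The 8 others had log2 fold changes from -0.29 for HARS1 to 0.12 for VARS1. Of 17 mitochondrial synthetases 0 were DEGs, with log2 fold changes from -0.43 for SARS2 to 0.58 for TARS2, and 1 was called higher when high replicate 1, high replicate 2 or vehicle replicate 1 was left out.

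The letters TGATGNAA, a form of the C/EBP-ATF response element to which ATF4 and C/EBP dimers bind, were searched on both strands of RefSeq promoters of GRCh38.p14, from 250 bases before to 50 after each start. They were found in 3.67% of 27305 promoters and in 1.52% of 8863 promoters of well-counted protein-coding genes tested. Among cytosolic synthetases with a promoter, 6 of 16 held a match (37.5%), which were 6 of the 10 called higher and 0 of the 6 not called. Among amino acid synthesis enzymes 4 of 16 held one (25%), which were 4 of the 9 called higher and 0 of the 7 others. Among ISR regulators 4 of 22 did (18.2%), 2 of the 15 called higher and 2 of the 7 not called. Among amino acid transporters 4 of 18 did (22.2%), 2 of the 7 called higher, 1 of the 3 called lower, which was SLC1A3, and 1 of the 8 not called. A match describes these letters and is not evidence of binding. The windows below show the match in capitals with up to 30 bases on each side, read along the strand of the gene and ending before its start, for genes named above and for further enzymes of the same lists. They lie at chr1:212565186-212565253 (ATF3, plus strand), chr15:40953232-40953299 (CHAC1, plus), chr7:97872439-97872506 (ASNS, minus), chr10:99430785-99430852 (GOT1, minus), chr6:150866327-150866394 (MTHFD1L, plus), chr16:70289656-70289723 (AARS1, minus) and chr9:92293698-92293740 (IARS1, minus).
ATF3: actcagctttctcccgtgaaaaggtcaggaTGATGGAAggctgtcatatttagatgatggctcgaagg
CHAC1: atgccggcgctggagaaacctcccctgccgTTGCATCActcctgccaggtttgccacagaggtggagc
ASNS: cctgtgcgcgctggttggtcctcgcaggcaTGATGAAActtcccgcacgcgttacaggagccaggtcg
GOT1: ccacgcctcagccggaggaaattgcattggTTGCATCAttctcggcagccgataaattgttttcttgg
MTHFD1L: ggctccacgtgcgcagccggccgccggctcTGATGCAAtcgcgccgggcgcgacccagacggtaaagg
AARS1: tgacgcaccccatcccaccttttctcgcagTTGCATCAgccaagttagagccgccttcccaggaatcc
IARS1: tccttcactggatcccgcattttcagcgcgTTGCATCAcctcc

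GOT1, the cytosolic aspartate aminotransferase, rose by 1.76 on the log2 scale, MTHFD1L, a mitochondrial folate enzyme, by 1.10, and IARS1, the isoleucine synthetase, by 0.90. The capitals TTGCATCA in CHAC1, GOT1, AARS1 and IARS1 are the same element read from the other strand.

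Genes of the ER protein folding response were higher as well. Of 30 chaperones and unfolded protein response genes 16 rose and 0 fell, with a median of 0.62. HSPA5, the main ER chaperone BiP, had 74724, 73372 and 74842 counts in vehicle and 269730, 272080 and 257390 at the high dose, a 3.58-fold rise. HERPUD1, a membrane protein of ER-associated degradation, rose 6.41-fold (2.68), the stress sensor ERN1 by 2.09 ± 0.07 and the co-chaperone DNAJB9 by 1.95 ± 0.06. All treated libraries stood above all vehicle libraries in these 4 genes, as they did in 1681 of all 1684 higher DEGs. Protein disulfide isomerases were within 1.5-fold, with PDIA3 at 0.43, PDIA4 at 0.55, PDIA6 at 0.39 and P4HB at 0.27. Of 27 cytosolic heat shock genes tested, 8 fell and 1 rose, with a median of -0.29 and 18 not called, with HSPA8, the constitutive cytosolic HSP70, at 24483, 23736 and 23572 in vehicle and 10242, 9954 and 10533 at the high dose (-1.22 ± 0.04, with exons that overlap 2 other genes) and HSPA1A, its stress-induced relative, at 2364, 2413 and 2459 against 1005, 942 and 999 (-1.30 ± 0.05). HSPA1A and HSPA1B are near-identical copies, so that reads between them are divided by a model. The member that rose was the heat shock factor HSF1 (0.68), which was no DEG with total-count scaling.

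**Figure D3:**
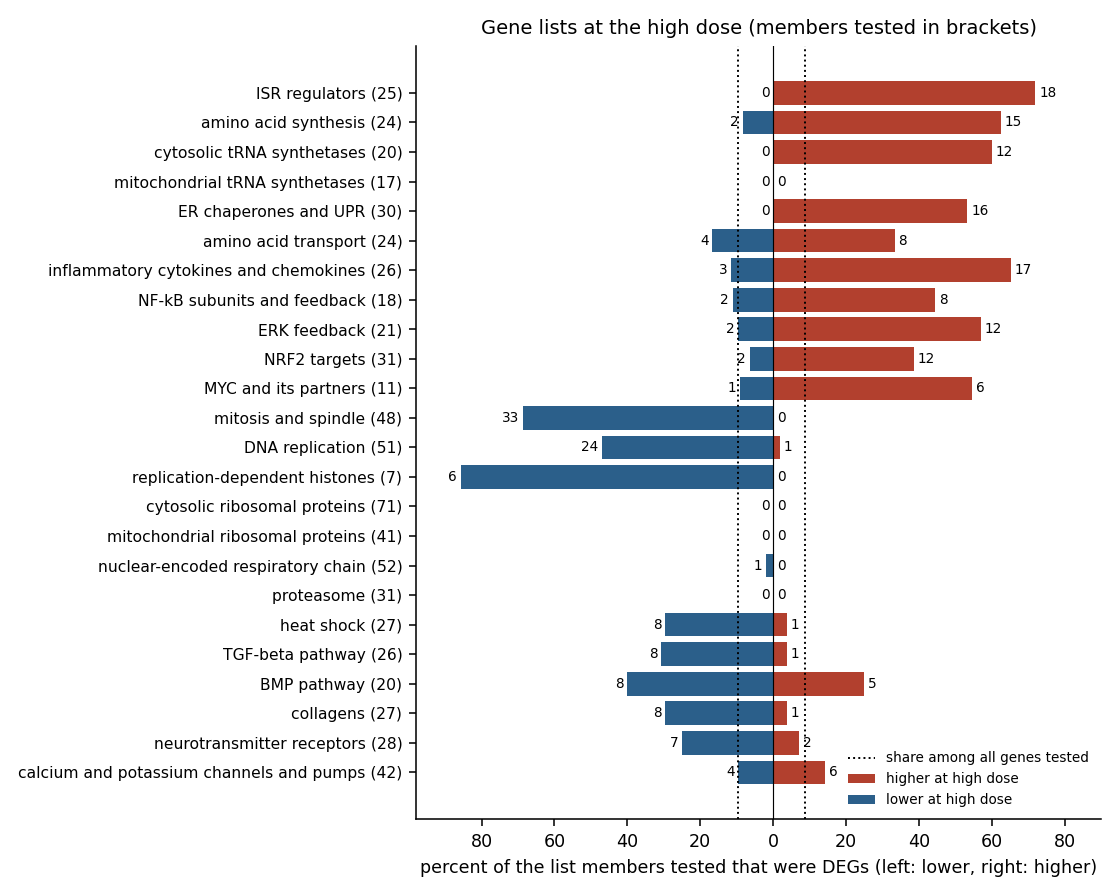
Percent of the tested members of each gene list that were lower (blue, left) or higher DEGs (red, right), with the number of DEGs at the bar ends and dotted lines at the shares of all genes tested, 9.57% and 8.66%. ISR regulators (18 of 25 higher) stand at one end. Replication-dependent histones (6 of 7 lower) and mitosis genes (33 of 48 lower) stand at the other, and the ribosomal protein and proteasome lists hold no DEG.

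RNAs of the mitochondrial genome split by kind. The ribosomal RNA MT-RNR1 (chrM:648-1601) had 13706, 13488 and 14351 counts in vehicle and 273840, 267560 and 277900 at the high dose, a 19.7-fold rise, and MT-RNR2 (chrM:1671-3229) rose 5.87-fold. Both rRNAs together made up 0.922%, 0.913% and 0.960% of the counts of the vehicle libraries and 5.96%, 5.76% and 6.06% at the high dose. The mitochondrial mRNAs together made up 4.18%, 4.11% and 4.33% in vehicle and 3.32%, 3.23% and 3.23% at the high dose, and 0 of the 13 were DEGs, with log2 fold changes from -0.56 for MT-CO2 to 0.08 for MT-ND2. MT-CO1, a subunit of cytochrome oxidase, had 229740, 222710 and 235370 counts in vehicle and 201160, 190130 and 189030 at the high dose (-0.25 ± 0.05). The libraries were made as mRNA libraries, and how much rRNA such a preparation carries over was not tested. The rRNAs were already higher at 20 µg/mL and were highest at 100 µg/mL, with mean counts of MT-RNR1 of 86152 ± 6080, 306870 ± 11166 and 273100 ± 5209 (SD, n = 3) at the low, medium and high dose. Between high and medium, MT-RNR1 differed by -0.17 (adjusted p = 0.00356 by DESeq2) and MT-RNR2 by -0.45.

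Nuclear genes for mitochondria changed little. Of 21 genes of mitochondrial stress and biogenesis 4 rose, among them the matrix protease LONP1 (1.15 ± 0.04) and the matrix chaperone HSPA9 (1.12 ± 0.02), while HSPD1 was at -0.01 and TFAM, which packages mitochondrial DNA, at -0.29. Of 41 mitochondrial ribosomal proteins 0 were DEGs, and of 52 nuclear-encoded respiratory chain subunits 1 was, ATP5MC3 (-1.01 ± 0.15). The number among the latter was 2 without high replicate 2 and without vehicle replicate 1 or 2.

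Chemokine and cytokine genes were among the strongest rises. Of 26 inflammatory cytokines, chemokines and adhesion genes tested, 17 rose and 3 fell, with a median of 1.62. CXCL8, which attracts neutrophils, had 91.2, 104 and 107 counts in vehicle and 2200, 2283 and 2022 at the high dose, a 21.5-fold rise (4.42 ± 0.11). Its relatives CXCL2 and CXCL3 were near the limit of counting in vehicle, with 3.07, 9.64 and 6.24 and with 3.07, 8.76 and 6.24, and reached 219, 254 and 245 and 222, 239 and 226 (log2 fold changes 5.21 ± 0.37 and 5.22 ± 0.38, adjusted p = 8.05e-43 and 1.62e-41 by DESeq2). Against the batch A vehicle the log2 fold change of CXCL3 was 6.58. The treated libraries of all 3 chemokines were close together, and their vehicle libraries were at or below 107. IL6 went from 82.0, 85.9 and 69.7 to 846, 944 and 871 (3.48 ± 0.15, adjusted p = 7.97e-118). IL1A went from 9.22, 14.0 and 11.4 to 191, 226 and 224 (4.20 ± 0.31), and LIF, of the IL6 family, rose by 2.18 ± 0.07. CXCL12, a chemokine of stromal and glial cells, went the other way, from 342, 381 and 376 to 70.6, 76.6 and 82.3 (-2.26 ± 0.14, adjusted p = 2.48e-59), as did CCL2 (-1.21 ± 0.12) and IL11 (-0.96). PTGS2 (0.32), VCAM1 (0.35) and IL33 (0.29) were within 1.5-fold.

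Of 18 NF-kB subunits and feedback genes 8 rose and 2 fell, with a median of 0.52. The subunits RELB and NFKB2 rose by 1.70 ± 0.08 and 1.20 ± 0.08, and NFKBIZ, a nuclear cofactor, by 1.93 ± 0.15. The other subunits were within 1.5-fold, with NFKB1 at -0.05, RELA at 0.47 and REL at 0.05, and the inhibitor gene NFKBIA was at 0.32. The kappa B letters GGAATTTCC, chosen after the values of the chemokines were seen, were found on either strand in 0.472% of the 27305 promoters. Among the 25 promoters of the cytokine list 7 held a match (28%). These were 6 of the 14 called higher, 0 of the 2 called lower and 1 of the 9 others. The letters were also found for ICAM1, an adhesion gene that rose by 1.68, and for CXCL6, a chemokine gene with at most 2.08 normalised counts in any of the 6 libraries and no adjusted p. The windows of the 5 chemokine genes that rose and hold the letters are shown, since 3 of them belong to the largest rises, with the match in capitals, for CXCL1 (chr4:73869285-73869353, plus strand), CXCL2 (chr4:74099234-74099302, minus), CXCL3 (chr4:74038729-74038797, minus), CXCL5 (chr4:73998729-73998797, minus) and CXCL8 (chr4:73740448-73740516, plus).
CXCL1: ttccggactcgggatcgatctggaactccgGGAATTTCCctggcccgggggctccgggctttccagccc
CXCL2: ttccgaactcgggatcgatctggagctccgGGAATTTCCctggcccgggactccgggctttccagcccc
CXCL3: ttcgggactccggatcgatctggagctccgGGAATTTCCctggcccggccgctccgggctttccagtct
CXCL5: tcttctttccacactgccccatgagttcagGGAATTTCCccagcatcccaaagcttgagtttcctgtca
CXCL8: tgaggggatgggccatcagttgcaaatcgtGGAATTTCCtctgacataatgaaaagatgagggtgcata

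CXCL1 rose from a mean of 3.87 ± 0.66 to 54.5 ± 3.06 counts (3.81 ± 0.55) and CXCL5 from 15.2 ± 1.57 to 94.6 ± 9.02 (2.64 ± 0.33). CXCL1, CXCL2 and CXCL3 are near copies of each other in these windows and in their mRNAs, so that reads between them are divided by a model.

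Genes that ERK signalling raises and that feed back on it were mostly higher. Of 21 tested, 12 rose, 2 fell and 7 were not called, with a median of 1.01 and the lowest log2 fold change at -1.665. The rises were led by IER3 (3.45 ± 0.22), the ERK phosphatase DUSP5 (2.95 ± 0.09), PHLDA1 (2.16) and MAFF (2.05). DUSP5 had 235, 223 and 262 counts in vehicle and 1831, 1922 and 1797 at the high dose. Immediate early factors were mixed. KLF4 (2.76 ± 0.12), KLF6 (1.70) and JUND (1.37 ± 0.09) rose, while EGR3 fell by 1.24 and EGR1 was at 0.10. MYC had 901, 875 and 988 counts in vehicle and 2945, 2638 and 2807 at the high dose (1.60 ± 0.06, adjusted p = 1.46e-180 by DESeq2), and its antagonists MXD1 (1.90 ± 0.10) and MXI1 (1.14 ± 0.11) rose as well. Of 71 cytosolic ribosomal proteins and of 37 ribosome biogenesis factors 0 were DEGs, and their medians, 0.09 and 0.09, changed sign with total-count scaling, under which 3 biogenesis factors were lower.

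Of 31 NRF2 targets, genes of the defence against oxidants and of iron handling, 12 rose and 2 fell, with a median of 0.33. HMOX1, which degrades heme, had 1177, 1155 and 1198 counts in vehicle and 11976, 11990 and 13065 at the high dose, a 10.5-fold rise. The ferritin chains FTH1 and FTL, which store iron, rose by 2.05 ± 0.09 and 1.52 ± 0.07, and GCLC, which makes the precursor of glutathione, by 1.98 ± 0.06. NQO1, a common readout of NRF2, was close to the 1.5-fold limit (0.62 ± 0.03), under which it stayed with total-count scaling, and TXN (0.29) and GCLM (0.47) were within it. The antioxidant response element letters TGACNNNGC, to which NRF2 dimers bind, were found on either strand in 13.6% of all promoters, in 1 of 9 promoters of NRF2 targets called higher and in 4 of 13 of those not called. With total-count scaling 8 of the list were higher, and 1 member was lower without high replicate 1 or 2 or without vehicle replicate 1 or 3. Of 31 autophagy genes 8 rose and 1 fell. SQSTM1, a receptor that carries cargo to the autophagosome, went from 9745, 10497 and 10726 to 39111, 40445 and 41319 (1.96), MAP1LC3B rose by 1.36 ± 0.04 and WIPI1 by 1.61 ± 0.07. Lysosomal genes mostly stayed within 1.5-fold, with 3 of 44 higher, among them NPC1, a cholesterol exporter of the lysosome (1.21 ± 0.03).

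Among sterol genes the exporters ABCA1 and ABCG1, targets of LXR, rose by 2.50 and 3.71. ABCA1 had 1291, 1322 and 1319 counts in vehicle and 7468, 7516 and 7274 at the high dose, and ABCG1, with few counts, went from 4.10, 7.88 and 5.20 to 70.6, 80.2 and 76.7. Of 27 genes of cholesterol synthesis and uptake 4 rose (14.8%) and 2 fell (7.41%), against 8.66% and 9.57% of all genes tested. With total-count scaling 2 were higher. INSIG1, which holds the sterol sensor in the ER, rose by 1.13 ± 0.04 and the desaturase SCD, of the fatty acid list, by 0.98 ± 0.03. At the medium dose INSIG1 and SCD were at -0.22 and -0.19. The sterol response element letters TCACNCCAC were found on either strand in 1.15% of all promoters and in 1 of 20 promoters of the cholesterol list, which was 0 of the 3 called higher and 1 of the 16 not called.

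Cell cycle genes were lower. Of 48 genes of mitosis and the spindle 33 fell and 0 rose, against 9.57% lower among all genes tested, with a median of -0.76. MKI67, the proliferation marker, had 5647, 5418 and 5639 counts in vehicle and 2244, 1917 and 2033 at the high dose, 2.7-fold lower. KIF20A, a kinesin of cytokinesis, went from 2207, 2098 and 2150 to 734, 677 and 698 (-1.62 ± 0.05, adjusted p = 9.27e-216 by DESeq2), and ASPM, a spindle pole protein, fell by 1.49 ± 0.05. The kinase PLK1 (-0.79), cyclin CCNB1 (-0.86) and TOP2A (-0.90) fell less, and FOXM1, a transcription factor of this group, was at -0.32. Of 51 DNA replication genes 24 fell and 1 rose, with a median of -0.54. UHRF1, which maintains DNA methylation, went from 1671, 1655 and 1717 to 502, 462 and 466 (-1.82 ± 0.06), the cyclin CCNE2 from 711, 665 and 648 to 220, 201 and 224 (-1.65 ± 0.10), and E2F2, an activator of S phase, fell by 1.87 ± 0.21. The 1 higher member was E2F7, a repressor of S phase genes, which went from 2085, 2078 and 2022 to 7060, 7328 and 7259 (1.81 ± 0.03). Of 7 replication-dependent histones tested 6 were lower, with low counts, and 3 were lower without high replicate 3.

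The letters TTTGAA, the cell cycle homology region read by the DREAM complex that represses mitotic genes, were found on either strand in 15.4% of all promoters and 9.49% of those of well-counted genes. Among 41 promoters of the mitosis list 31 held a match (75.6%), and the share was 22 of 29 among the members called lower and 9 of 12 among those not called. Among 41 promoters of DNA replication genes 1 did. The windows of 3 mitotic genes show matches in capitals, at chr15:59105087-59105145 (CCNB2, plus strand), chr16:23678830-23678888 (PLK1, plus) and chr10:128126424-128126500 (MKI67, minus, with 2 matches).
CCNB2: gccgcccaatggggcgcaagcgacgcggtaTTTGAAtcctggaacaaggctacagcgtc
PLK1: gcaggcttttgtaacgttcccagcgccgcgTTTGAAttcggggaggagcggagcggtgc
MKI67: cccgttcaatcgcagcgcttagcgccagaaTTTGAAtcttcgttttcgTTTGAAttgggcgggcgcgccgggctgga

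Among G1 regulators, the CDK inhibitors CDKN1A and CDKN2B rose by 1.44 ± 0.07 and 1.48 ± 0.06. CDKN1A, which encodes p21, had 446, 464 and 438 counts in vehicle and 1175, 1230 and 1244 at the high dose, but 396 ± 18.5 (SD, n = 3) at the medium dose. CDKN2C, another inhibitor of the same kinases, fell from 1992, 2071 and 2039 to 508, 434 and 479 (-2.11 ± 0.06), and CDK6 fell by 0.90. CCND1 was at -0.05 and CDK4 at 0.02. Of 27 p53 targets 8 rose and 3 fell. GADD45A (2.39), SESN2 (2.74) and the death receptor TNFRSF10B (2.24), which are also raised in the ISR, were the largest well-counted rises, while MDM2 (0.44), BAX (0.18) and CCNG1 (0.08) were within 1.5-fold. In the BCL2 family 5 of 15 rose, among them the death-promoting members PMAIP1 (1.56 ± 0.06) and BBC3, from 6.90 ± 2.90 to 79.9 ± 11.0 counts, and the protective BCL2 (1.22 ± 0.12). The decoy receptor TNFRSF10D fell by 1.46 ± 0.07 and the ligand TNFSF10, with few counts, also fell (-2.19 ± 0.51).

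Collagens and TGF-beta genes were lower in part. Of 27 collagen chains 8 fell (29.6%) and 1 rose (3.70%), with a median of -0.38. COL1A1, a chain of the main fibrillar collagen, had 68223, 71542 and 68185 counts in vehicle and 17349, 16161 and 16168 at the high dose, 4.19-fold lower (-2.07 ± 0.04). Its partner COL1A2 went from 44509, 43958 and 42743 to 12425, 11595 and 11301 (-1.89 ± 0.05), and both COL3A1 (-1.67 ± 0.08) and COL5A1 (-1.54 ± 0.03) fell. The 4 largest falls were those of fibrillar chains, whereas the basement membrane chains COL4A1 (-0.36) and COL4A2 (-0.19) and the chains COL6A1 (0.12), COL6A2 (0.32) and COL6A3 (-0.18) were within 1.5-fold. With total-count scaling 12 collagens were lower. THBS1, an activator of TGF-beta in the matrix, went from 37629, 36320 and 36989 to 10420, 9253 and 9265 (-1.94 ± 0.04). Of 21 collagen processing genes 5 fell, among them the propeptidase ADAMTS2 (-1.21 ± 0.05) and the collagen chaperone SERPINH1 (-0.63 ± 0.03). The latter lay near the 1.5-fold limit and was no DEG against the batch A vehicle.

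Of 26 TGF-beta pathway genes 8 fell (30.8%) and 1 rose (3.85%), with a median of -0.30. The ligand TGFB3 went from 447, 391 and 416 to 60.2, 47.7 and 53.3 (-2.97 ± 0.15, adjusted p = 7.68e-88 by DESeq2) and TGFB2 fell by 0.67, while TGFB1 was at -0.36. The pathway's feedback genes PMEPA1 (-1.07 ± 0.04) and SMAD6 (-1.69 ± 0.13) fell, but SMAD7 (-0.34) and CCN2 (0.00) were within 1.5-fold. TGIF1, a corepressor of this pathway, went from 526, 506 and 540 to 3118, 3157 and 3074 (2.57 ± 0.06). Without high replicate 1 or 2 the higher members numbered 2. Of 20 BMP pathway genes 5 rose (25%) and 8 fell (40%). The ligand BMP4 (-2.37 ± 0.18) and the target genes ID1 (-0.97 ± 0.10), ID2 (-2.42 ± 0.11), ID3 (-1.50 ± 0.05) and ID4 (-1.51 ± 0.23) fell, the last with low counts. ID2, a partner that blocks DNA binding of other factors, went from 589, 580 and 532 to 107, 106 and 105. The secreted antagonist GREM1 rose by 2.18 ± 0.07.

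Glucose and oxygen genes moved in both directions. Of 31 genes of glycolysis and glucose sensing 4 rose (12.9%) and 7 fell (22.6%). HKDC1 (4.73), HK2 (1.17), PFKFB2 (1.71) and the transporter SLC2A3 (1.20) rose, whereas LDHA, which makes lactate, went from 38934, 37224 and 37732 to 19573, 19162 and 19004 (-0.98 ± 0.03), and PGK1 (-0.69) and PFKFB3 (-0.85) fell. Of 18 hypoxia targets 4 rose and 4 fell (22.2% each). NDRG1 (2.43), ADM (1.35) and VEGFA (0.97) were among the rises. EGLN3, a sensor of oxygen, fell from 132, 121 and 131 to 17.4, 21.6 and 18.7 (-2.72 ± 0.24). In insulin signalling the adaptor IRS2 went from 420, 440 and 437 to 3017, 2955 and 3269 (2.83 ± 0.06), while IRS1 fell by 0.62 and the PI3K regulatory subunits PIK3R1 (-1.04) and PIK3R3 (-1.10) fell. Of 15 clock genes 6 rose, led by the repressor NR1D1 (1.33 ± 0.06), whose medium dose value was -0.07, and HLF fell by 1.34. CYP26B1, which degrades retinoic acid, went from 934, 860 and 892 to 189, 177 and 163 (-2.35 ± 0.09).

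Genes of neural signalling were mostly few in counts. Besides the rise of NGFR, the neurotrophin gene NTF4 fell by 1.15 on low counts, and BDNF (-0.27) and NTF3 (-0.23) were no DEGs. Of 28 neurotransmitter receptors tested 2 rose (7.14%) and 7 fell (25%). The serotonin receptor HTR2A went from 148, 175 and 144 to 31.3, 28.8 and 22.4 (-2.51 ± 0.22), the GABA receptor subunit GABRE, whose exons overlap 2 other genes, fell by 1.67 ± 0.08 and the histamine receptor HRH1 also fell (-1.04 ± 0.07). HTR1D, another serotonin receptor, rose from 35.1 ± 4.83 to 98.9 ± 7.23 (1.49 ± 0.25). The glutamate receptor genes GRIN1 (-1.31), GRIN2A (-1.22) and GRIN2D (-1.33) were no DEGs. Voltage-gated sodium channels are the best known targets of Aconitum alkaloids. The study's own measurement of the extract lists aconitine as not detected and gives contents for benzoylmesaconine and benzoylaconitine. Of 14 of these genes 7 were tested, 1 higher and 1 lower (14.3% each). SCN8A rose from 79.9, 88.5 and 114 to 200, 186 and 175 (0.99 ± 0.16) and SCN3A fell from 284, 300 and 267 to 164, 177 and 156 (-0.77 ± 0.12). Of 42 calcium and potassium channels and pumps 6 rose (14.3%) and 4 fell (9.52%), against 8.66% and 9.57% of all genes tested. They were led by the potassium channel subunit KCNG1 (1.99 ± 0.10) and by KCNK2 (-2.18 ± 0.23), and the sodium pump subunit ATP1B1 fell by 1.64 ± 0.05. Of small GTPases, RND3, an atypical member that loosens the actin cytoskeleton, went from 1234, 1164 and 1166 to 15010, 15012 and 14586 (3.65 ± 0.04), a 12.5-fold rise.

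Markers of the line itself and of other cell types changed in part. VIM, the main intermediate filament of the line, had a log2 fold change of 0.29, CD44 of -0.38, GJA1 of -0.40 and SOX9 of -0.25, so that these stayed within 1.5-fold. NES, a filament of neural progenitors, went from 212, 227 and 204 to 60.2, 73.0 and 60.8 (-1.72 ± 0.16), in the same direction as SLC1A3, and OLIG2, a factor of glial progenitors, rose from 1.56 ± 1.38 to 24.5 ± 3.14 counts. Of 5 epithelial markers tested KRT18 (-1.55 ± 0.05) and KRT8 (-0.59) fell and CLDN4 (0.86) rose, and KRT8 was no DEG without high replicate 1, high replicate 2 or vehicle replicate 1. Of 8 neuronal and oligodendrocyte markers TUBB3 (-1.65) and SNAP25 (-2.07) fell and MAP2 (0.83) and MBP (0.85) rose. Of 3 immune markers tested PTPRC fell, from 257, 286 and 281 to 108, 74.8 and 72.0. Of 7 endothelial and pericyte markers PDGFRB fell (-1.15 ± 0.06), and 2 were lower without high replicate 1. The part that any other cell type had in the changes was not tested. EPCAM, CDH1, CDX2, KRT20 and CD3E were at or near 0 in both groups, whereas the markers listed here were counted.

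Of 15 genes of MHC class I presentation and of 31 proteasome subunits 0 were DEGs, and MCL1 (0.40), SLC2A1 (0.17) and HSP90AB1 (-0.22) were among the abundant genes within 1.5-fold. Of 24 glutathione enzymes 3 fell, all of them GSTM genes close to the limit, and of 34 interferon-stimulated genes 8 rose (23.5%) and 2 fell. The 2 that fell, USP18 (-0.61) and PARP9 (-0.59), were also near the limit, and 0 fell without high replicate 1 and 1 without vehicle replicate 2. Drug efflux and conjugation held 0 higher and 5 lower members of 18 (27.8%), with 3 lower without vehicle replicate 1, and the efflux pump ABCB1 was at -0.33.

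The high dose was compared directly with the medium dose in the same fit, since changes against a shared vehicle cannot be compared by their calls. Of 16467 genes tested 1679 were DEGs (10.2%), 755 higher (4.58%) and 924 lower (5.61%) at the high dose. Of 25 cytokine genes tested here 15 were higher at the high than at the medium dose and 2 lower. For CXCL8 the low dose had 85.4 ± 17.4 counts, the medium dose 191 ± 24.1 and the high dose 2168 ± 133 (SD, n = 3), a log2 difference of 3.50 between high and medium. GDF15 was at 151 ± 7.56, 1037 ± 61.1 and 8795 ± 241 (difference 3.08). Of 25 ISR regulators 12, of 24 amino acid synthesis enzymes 6 and of 20 cytosolic synthetases 2 were higher at the high than at the medium dose, and PSAT1 had 4502 ± 206 counts with the medium and 5131 ± 56.4 with the high dose (difference 0.19). CHAC1, of the ISR regulators, was at 611 ± 30.5 and 640 ± 37.0, a difference of 0.07 (adjusted p = 0.625 by DESeq2) with a standard error of 0.10. Mitosis genes were lower at the high dose in 15 of 48, collagens in 7 of 26 and heat shock genes in 8 of 25. COL1A1 was at 65170 ± 2959, 51925 ± 2078 and 16559 ± 684 counts at the low, medium and high dose. Of 15 clock genes 8 were higher at the high than at the medium dose and 1 lower.

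**Figure D4:**
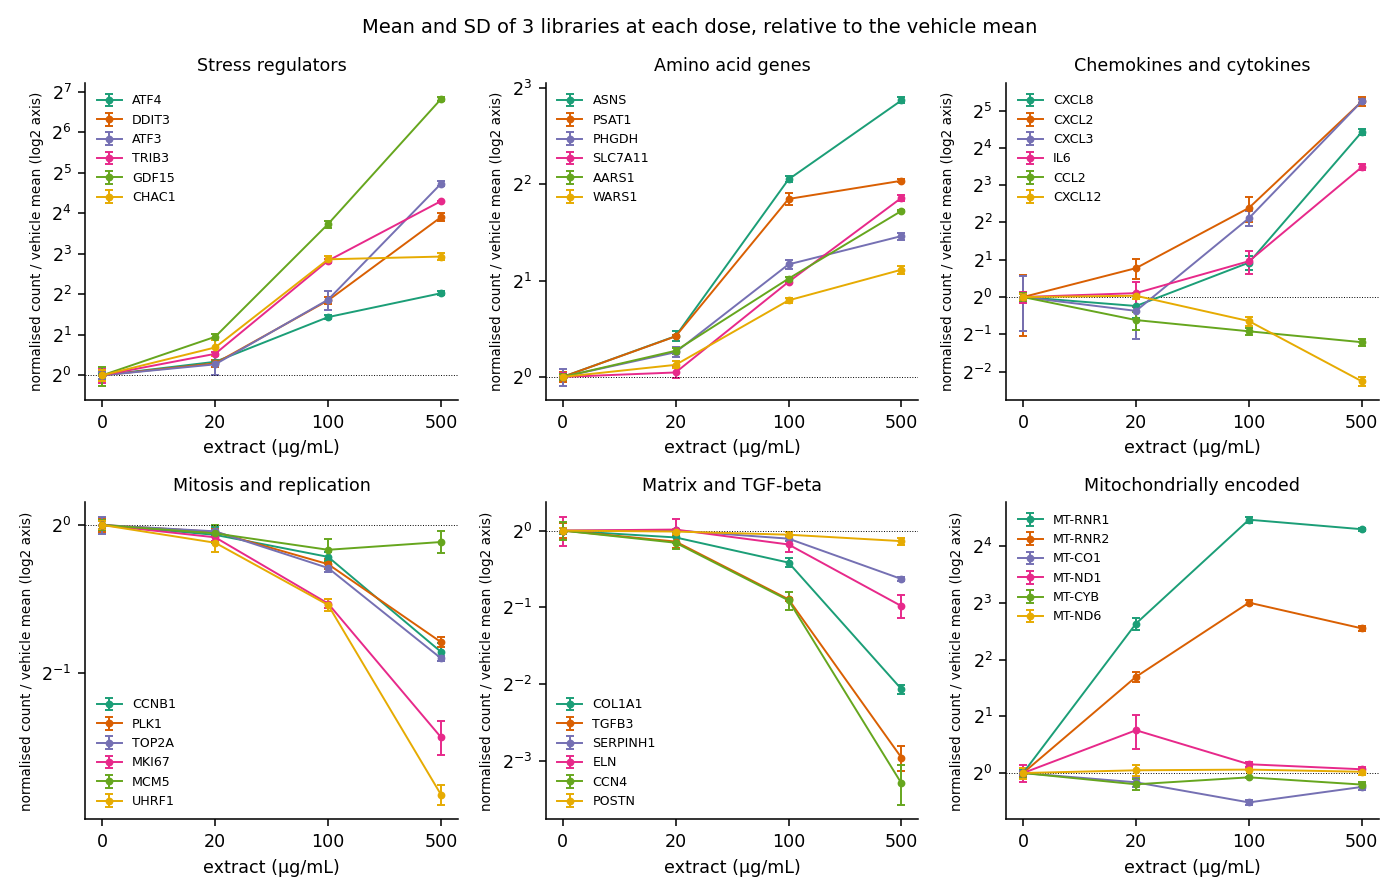
Mean normalised count relative to the vehicle mean (log2 axis) at 0, 20, 100 and 500 µg/mL, with SD over 3 libraries, for 6 genes in each of 6 groups. CHAC1 is level from 100 to 500 µg/mL, with means of 611 and 640, CXCL8 rises mainly between these doses, and MT-RNR1 is highest at 100 µg/mL.

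Finally, the response of SW1783 was compared with that of HT29 at the same dose, as an interaction over the 24 batch B libraries of both lines. It was past the thresholds in 2689 of 18379 genes tested (14.6%). Of the 23 genes shown for the largest changes in SW1783, 20 were among them. These genes were picked by their change in the same SW1783 libraries, which favours a large difference. Their number therefore cannot be set against the 14.6%. GDF15 rose by 6.81 in SW1783 and by 0.71 in HT29 (adjusted p = 7.8e-28 by DESeq2), a difference of 6.08 ± 0.12 (SE). HT29 was well counted for it, with normalised means of 943 ± 62.7 in vehicle and 1535 ± 45.2 at the high dose (SD, n = 3). Its raw counts were 768 to 1281 and 887 to 2004, in libraries of unequal depth. HKDC1 (0.41 in HT29) and RAB7B (0.19) were also well counted there and differed by 4.30 and -3.57. KCP (-0.14 in HT29) differed by 5.19, but on 17 to 28 raw counts in HT29 vehicle and 11 to 27 at the high dose. CXCL8 was closer, at 3.10 in HT29 with a difference of 1.30 ± 0.31 (adjusted p = 0.00027 by DESeq2). Its relatives CXCL3 and CXCL2 were at 2.13 and 2.55 in HT29 and differed by 3.06 and 2.63. MT-RNR1 had log2 fold changes of 4.30 and 4.58 in SW1783 and HT29 and a difference of -0.31 (adjusted p = 0.011 by DESeq2), which was under the 1.5-fold limit. VAV3 and CCN4 did not pass the test (adjusted p = 0.14 and 0.11), with 0 to 2 raw counts in the HT29 libraries.

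**Figure D5:**
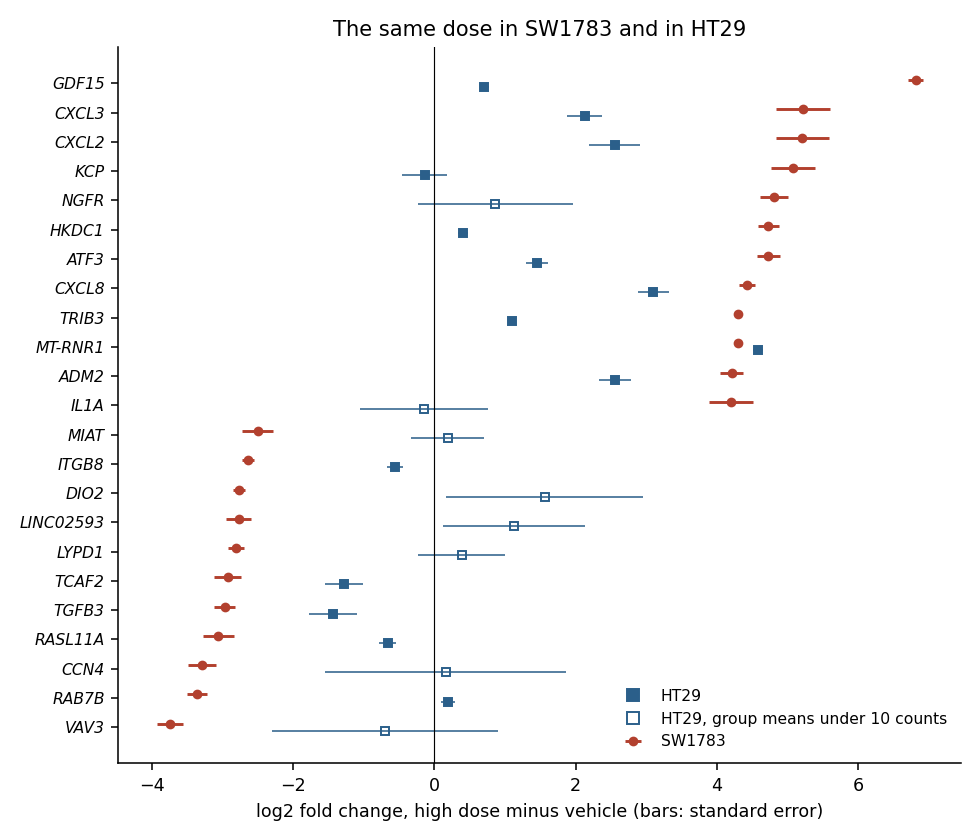
Log2 fold changes at the high dose with standard errors for the 23 genes shown for their size, in SW1783 (circles) and HT29 (squares, open where the HT29 group means were under 10 counts). GDF15 stands at 6.81 against 0.71, and MT-RNR1 at 4.30 against 4.58.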

How the data were processed

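RNA of SW1783 and HT29 cells was sequenced as directional mRNA libraries, paired-end. The deposited values are expected counts per gene, which the authors estimated with RSEM 1.3.3 after FastQC 0.11.9, Trim Galore 0.6.5 and STAR 2.7.3a, as the submitters' processing notes list them. The methods give other versions of some of these tools and name GRCh38 together with hg19. Of the values 8.84% were not whole, and all were rounded to whole numbers.

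DESeq2 1.42.0 in R 4.3.3 was fitted to the 12 SW1783 libraries of batch B with dose group as the only term. Wald tests were two-sided with Benjamini-Hochberg adjustment. A DEG had an adjusted p under 0.05 and a change of more than 1.5-fold. High against medium was taken from the same fit, and the difference from HT29 was the interaction in 24 libraries. The script was tested on simulated data. Printed counts were divided by size factors unless called raw totals. Genes were named as the 12 largest changes of each sign with a mean of 100 or more counts and no overlap between groups, and as up to 4 DEGs a list with a mean of 50 or more. Other list members were named where they define a list. A gene of the largest falls and a few list members are not reported here. The lists, the members and the rule were chosen with earlier results of these data known. Of 1471 list genes 1469 were matched by symbol. Alternatives were other size factors, edgeR 4.0.16, a filter on low counts, the 6 libraries alone, the replicate number as a block, the batch A vehicle, other fold thresholds and leaving out each library. The design has no replicate block, since nothing in the labels says that a number marks a shared culture or day and not every pair of same-numbered libraries correlated above 0.1. Figures were drawn with matplotlib 3.10.9 under Python 3.11.15. Depth limits genes with few counts, and among the 11243 genes with a mean of 100 or more the median standard error was 0.07.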

Additional observations from a re-analysis of the deposited data

Results flagged for a closer look

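The response to the high dose differed between SW1783 and HT29 in 20 of the 23 genes shown for their size, by the interaction test of DESeq2. Since the genes were picked by their change in the same SW1783 libraries, a large difference was favoured in advance. The difference of log2 fold changes, SW1783 minus HT29, was 6.08 for GDF15, 5.19 for KCP, 4.30 for HKDC1, 3.24 for ATF3, 3.18 for TRIB3, 3.06 for CXCL3, 2.63 for CXCL2, 1.63 for ADM2 and 1.30 for CXCL8. Among the falls it was -3.57 for RAB7B, -2.42 for RASL11A, -2.11 for ITGB8, -1.68 for TCAF2 and -1.56 for TGFB3. Without HT29 high replicate 2, the library with the lowest total count, ADM2 stood at 1.41 and CXCL8 at 1.70.

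Counts were also low for some of the genes above, so that the size of their difference is uncertain. In HT29, raw counts were 4 to 12 in vehicle for CXCL2, and at the high dose 6 to 13 for TGFB3 and 8 to 20 for TCAF2. KCP had 17 to 28 in HT29 vehicle and 11 to 27 at the high dose. In SW1783 vehicle CXCL2 had 3 to 11 raw counts and CXCL3 had 3 to 10. For the remaining genes HT29 was at or near the limit of counting, so that the size of the difference cannot be interpreted. The fitted values were 3.92 for NGFR, 4.32 for IL1A, -3.22 for LYPD1, -3.92 for LINC02593, -4.35 for DIO2 and -2.72 for MIAT, where no HT29 library of the groups compared had more than 11 raw counts.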

How the results depend on the processing

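The number of DEGs was 9040 (4641 higher, 4399 lower) with no fold threshold and 1730 (797 and 933) with a 2-fold threshold. The share of DEGs that were higher was 47.5%, and 34.1% with total-count size factors. Leaving out 1 library gave 3188 to 3367 DEGs, and the other alternatives 3297 to 3901, the last with edgeR. With the replicate number as a block there were 3297 DEGs at the high dose, 1538 between high and medium and 2575 for the difference from HT29, and all 198 named genes kept their call. Deviations of same-numbered high and vehicle libraries correlated at 0.05, -0.03 and -0.05, and those of high and medium libraries at 0.12, 0.07 and 0.24, so that not every pair passed 0.1. Differently numbered pairs ran from -0.06 to 0.09 for high and vehicle and from -0.20 to 0.09 for high and medium. Whether a number marks a shared culture or day was not tested.

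No named gene reversed. Those that lost their call numbered 10 against the batch A vehicle, 9 with total-count size factors and 1 to 6 without a single library. The batch A vehicle may not be independent of the batch B vehicle, since same-numbered libraries of both differed by a chi-square per degree of freedom of 1.53 to 1.64, against 2.06 to 2.76 between replicates of a group. Genes with few counts, such as CXCL1 and ABCG1, had the widest standard errors.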
